A study of Homo sapiens with 4 samples.

Results

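The genes described here are 44 genes of the extracellular matrix, its integrin and proteoglycan receptors and the enzymes that remodel it, chosen by name from a gene table of 58174 entries. They comprise 9 collagen chains, 5 matrix glycoproteins, 6 laminin chains, 4 proteoglycans, 10 integrin chains, 7 genes for proteases, a protease receptor and a crosslinking enzyme, and 3 tissue inhibitors of metalloproteinases (TIMPs). Transcripts were measured in 2 cell lines from human liver tumours, the hepatocellular carcinoma line LM3 and the intrahepatic cholangiocarcinoma line RBE. Either line received, by lipofection, the small interfering RNA si-FENDRR, which targets a long noncoding RNA named FENDRR, or the control si-NC, and RNA was harvested 48 h later from cells detached with trypsin. The 4 groups were LM3 si-FENDRR, LM3 si-NC, RBE si-FENDRR and RBE si-NC, with 1 library each. Each tumour type was represented by 1 line, so line and tumour type cannot be told apart.

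The extracellular matrix is the mesh of secreted proteins around cells. Collagens and fibronectin form its fibres, while laminins, type IV collagen, agrin and perlecan form the basement membrane on which epithelia rest. Integrins are paired alpha and beta chains in the plasma membrane that bind these ligands and link them to the actin skeleton. Matrix metalloproteinases (MMPs) and the urokinase system cut matrix proteins, and TIMPs block the MMPs. In healthy liver, basement membrane surrounds bile ducts, whereas hepatocytes face a looser matrix rich in fibronectin.

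Levels are given as deposited, in FPKM, which are fragments scaled to the length of the gene and to the mapped fragments of the library. Between 13437 and 13682 genes reached 1 FPKM per library, and the depth is unknown. FENDRR itself was listed at 0 in all 4 libraries, so the knockdown could not be checked and the transfections are compared by label. Of 10 hepatocyte markers, 6 reached 1 FPKM in each library, and their summed level was 193 (si-FENDRR) and 199 (si-NC) FPKM in LM3 and 138 (si-FENDRR) and 175 (si-NC) FPKM in RBE. LM3 had the transcription factor CEBPA at 81.8 (si-FENDRR) and 93.1 (si-NC) FPKM. The secreted proteins ALB, TF, AFP and AMBP had 8.25 to 43.7 FPKM there, while APOA1, APOB, TTR and SERPINA1 were under 1 FPKM. In RBE, AMBP had 59.0 (si-FENDRR) and 67.8 (si-NC) FPKM, and SERPINA1 had 56.8 (si-FENDRR) and 82.5 (si-NC) FPKM. AMBP, SERPINA1 and TTR were higher in RBE than in LM3. CEBPA, TF and HNF4A were lower in RBE, and ALB, AFP, APOA1 and APOB were under 1 FPKM there. Of 8 cholangiocyte markers, 3 reached 1 FPKM in LM3 and 7 in RBE, led in RBE by the bile duct keratins KRT19 and KRT7, and the bile duct channel CFTR was near 0 in both lines. The summed level of 8 fibroblast and stellate cell markers was 28.8 and 25.5 FPKM in the LM3 libraries, mostly the proteoglycan LUM, and 117 and 119 FPKM in the RBE libraries, mostly the smooth muscle actin ACTA2. Of these 8 markers, 1 reached 1 FPKM in LM3 and 4 in RBE. Beside ACTA2, those in RBE were COL1A1 (2.94 and 2.45 FPKM), PDGFRA (4.11 and 4.08 FPKM) and PDGFRB (1.98 and 1.40 FPKM). COL1A2, a defining fibroblast collagen, was listed at 0 in LM3 and at or near 0 in RBE. The 5 endothelial markers summed to 4.00 and 4.45 FPKM in LM3 and to 0.553 and 0.493 FPKM in RBE. Most of each sum was PECAM1, at 3.10 and 3.86 FPKM in LM3 and 0.401 and 0.408 FPKM in RBE. VWF was at 0 in LM3 and KDR at 0 in RBE. The 5 leukocyte markers summed to 60.3 and 62.5 FPKM in LM3 and to 14.4 and 14.0 FPKM in RBE, nearly all of it the lysosomal protein CD68, with CD3E at 0 throughout and PTPRC at 0 in LM3. These marker sums moved with the line, and their part in the line differences below was not tested.

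LM3 and RBE differed in the transcript levels of many matrix genes. In LM3, fibronectin, type VI collagen and TIMP3 were higher, whereas tenascin-C, the type IV collagen chains COL4A1 and COL4A2 and the integrin chains ITGA3, ITGB1 and ITGB4 were lower. Of the 44 members, 43 reached an FPKM of at least 1 in some library and were tested with limma on log2(FPKM + 1), a scale that understates the differences of weakly expressed genes. ITGB8, the beta chain of a receptor that activates latent TGF-beta, did not reach it, with values of 0.0826 to 0.50 FPKM. A gene is called higher or lower between the lines only where its Benjamini-Hochberg adjusted p, taken over all 15930 genes tested, was under 0.05. Of the 43 members, 34 were called between the lines, against 58.7% of all tested genes. With no filter on low values, which tests 58174 genes, 0 members and 0 genes were called, although 34 members had an unadjusted p under 0.05. In LM3, 13 members were higher, against 32.3% of all tested genes, and 21 were lower, against 26.4%. The counts by role below stand beside these same shares. The median size of the line difference was 1.24 on the log2 scale over the 43 members and 0.65 over all tested genes. The median over the members includes those that reached 1 FPKM in only 1 line. The members were chosen with earlier results of these data known. These contrasts with all tested genes therefore describe the list and are not a test of it. In bulk RNA, fewer cells with a transcript and less of it per cell cannot be told apart.

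Some of these calls were favoured by the filter. A gene that reached 1 FPKM in only 1 line had a value there above both values of the other line. In all, 8 members passed the filter in 1 line alone: MMP2, COL3A1 and TIMP3 in LM3, and COL12A1, COL4A1, TNC, COL5A1 and ITGB6 in RBE. Of the 35 members with at least 1 FPKM in both lines, 26 were called, against 53.2% of the 12242 tested genes of that kind. The values of the lines did not overlap in 38 of 43 members, against 81.7% of all tested genes. In ITGA2, SDC1, ITGB5, ITGA6, LAMB2, LAMA5 and COL17A1, a difference between the transfections within a line was larger than the line difference. The share of all tested genes with this trait was not computed. The labels name no separate cultures within a line, so the p-values measure only the spread between these libraries. Errors given with log2 differences are standard errors from limma, with n = 2 libraries per line that differ in transfection.

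**Figure D1:**
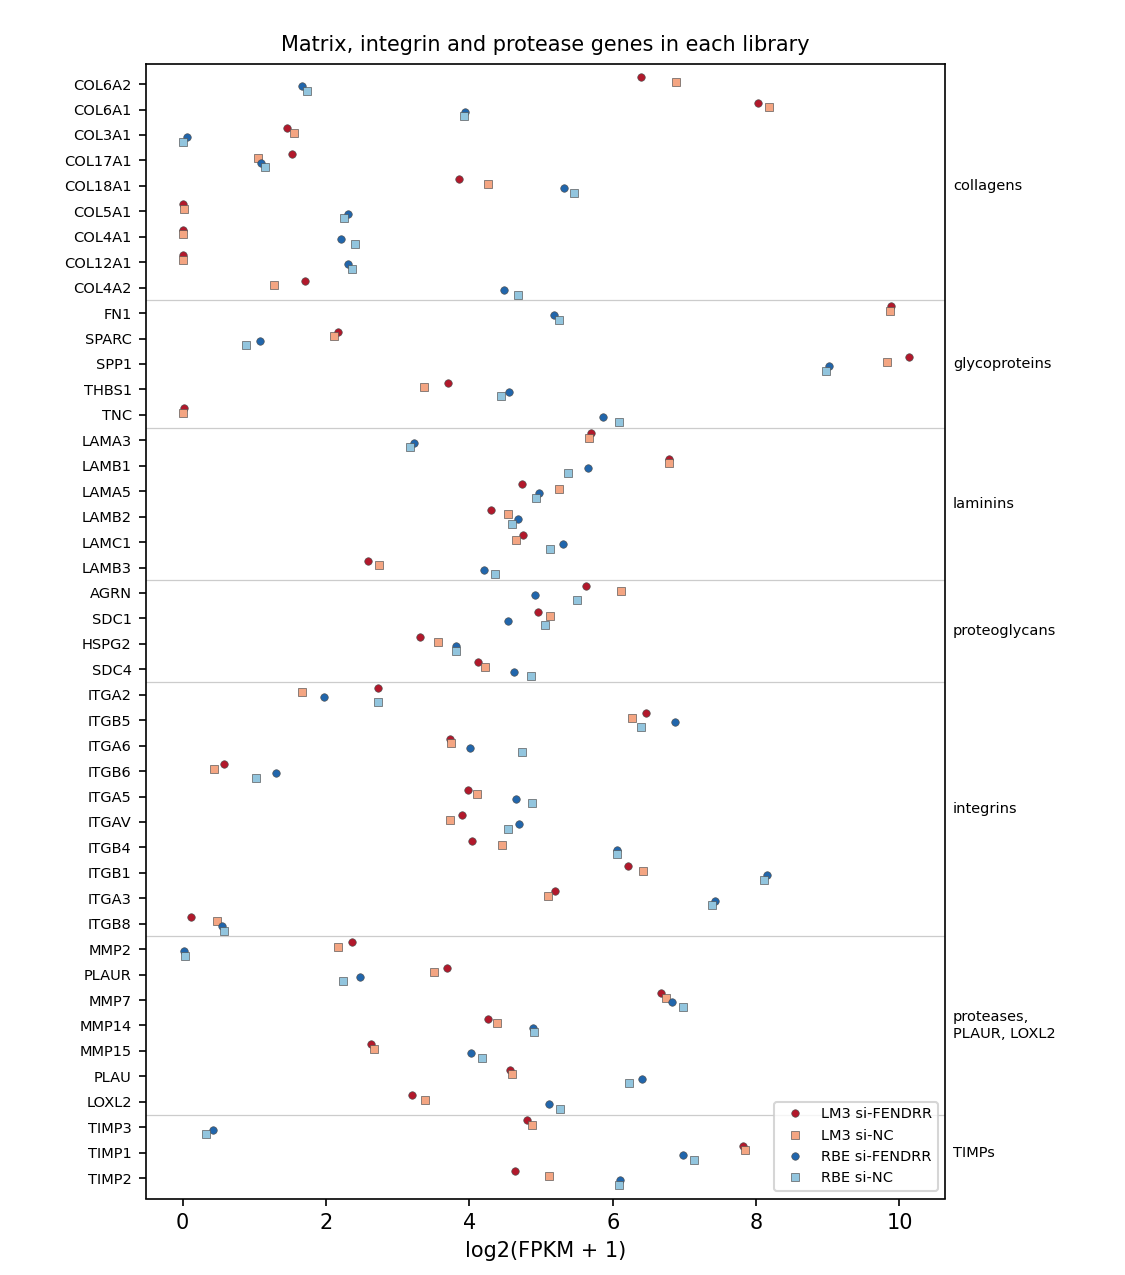
Levels of the 44 members in each library as log2(FPKM + 1), grouped by role, with red circles and orange squares for LM3 si-FENDRR and LM3 si-NC and blue circles and light blue squares for RBE si-FENDRR and RBE si-NC. The marks of a line lie close together in most rows, and the lines lie apart in 38 of the 43 tested members, with COL6A1, COL6A2, FN1 and TIMP3 far to the right in LM3 and TNC far to the right in RBE.

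Among the 9 collagen chains, 3 were higher in LM3, 5 were lower, and COL17A1 was not called. COL6A1 and COL6A2 encode chains of type VI collagen, which forms beaded filaments close to the cell surface. In the deposited table, on hg38, COL6A1 (ENSG00000142156) spans chr21:45981737-46005050 and COL6A2 (ENSG00000142173) spans chr21:46098097-46132849, both on the plus strand. COL6A1 had 260 (si-FENDRR) and 289 (si-NC) FPKM in LM3, against 14.3 (si-FENDRR) and 14.1 (si-NC) FPKM in RBE. COL6A2 had 83.1 (si-FENDRR) and 117 (si-NC) FPKM in LM3, against 2.18 (si-FENDRR) and 2.33 (si-NC) FPKM in RBE. Both genes lay far higher in the LM3 libraries, with no overlap: the log2 difference was 4.18 ± 0.11 for COL6A1 (adjusted p = 0.000612) and 4.94 ± 0.16 for COL6A2 (adjusted p = 0.000698). Mean FPKM was 19.3-fold higher in LM3 for COL6A1 and 44.5-fold for COL6A2, and the FPKM ratio of COL6A1 to COL6A2 was 3.13 and 2.46 in LM3 and 6.57 and 6.08 in RBE. COL3A1, a fibrillar collagen, was also higher in LM3, at 1.75 (si-FENDRR) and 1.95 (si-NC) FPKM against 0.0450 (si-FENDRR) and 0.00830 (si-NC) FPKM in RBE, a low level in both lines (log2 difference 1.47 ± 0.15, adjusted p = 0.00431).

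Type IV collagen forms the network of the basement membrane, and its chains COL4A1 and COL4A2 were lower in LM3. COL4A2 had 2.26 (si-FENDRR) and 1.41 (si-NC) FPKM in LM3, against 21.3 (si-FENDRR) and 24.7 (si-NC) FPKM in RBE, and its mean FPKM was 12.5-fold higher in RBE. COL4A1 was listed at 0 in both LM3 libraries and had 3.62 (si-FENDRR) and 4.29 (si-NC) FPKM in RBE. A listed 0 can be a failed estimate. The log2 difference was -3.09 ± 0.20 for COL4A2 and -2.30 ± 0.15 for COL4A1, each with an adjusted p of 0.00183. In RBE the FPKM ratio of COL4A2 to COL4A1 was 5.88 (si-FENDRR) and 5.76 (si-NC). COL5A1, a chain of a collagen that starts fibrils, and COL12A1, a collagen found on the surface of fibrils, were listed at 0 in LM3 or nearly so (COL5A1 0 with si-FENDRR and 0.0188 with si-NC). In RBE these had 3.93 (si-FENDRR) and 3.77 (si-NC) FPKM for COL5A1, and 3.95 (si-FENDRR) and 4.14 (si-NC) FPKM for COL12A1. Both were lower in LM3 (adjusted p = 0.00178 for COL5A1 and 0.00165 for COL12A1). COL18A1, a basement membrane collagen whose end fragment is endostatin, had 13.5 (si-FENDRR) and 18.2 (si-NC) FPKM in LM3, against 39.1 (si-FENDRR) and 42.9 (si-NC) FPKM in RBE, a log2 difference of -1.33 ± 0.13 (adjusted p = 0.00377). Its adjusted p was 0.0578 without RBE si-FENDRR and 0.0670 without RBE si-NC. COL17A1, the transmembrane collagen of hemidesmosomes, ranged from 1.07 to 1.89 FPKM over the 4 libraries and was not called (log2 difference 0.17 ± 0.20, adjusted p = 0.487).

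COL4A1 and COL4A2 are transcribed away from each other from a shared promoter region on chromosome 13. The sequence between their RefSeq starts is shown because both chains were low in LM3. In the RefSeq table for GRCh38.p14, which holds 36 of the 44 members, the 126 bases between the starts lie at chr13:110307158-110307283, printed on the plus strand, the strand of COL4A2, with motif matches in capitals. The deposited table gives COL4A1 (ENSG00000187498) the span chr13:110148963-110307149 on the minus strand. It gives COL4A2 (ENSG00000134871) the span chr13:110305812-110513027 on the plus strand. These gene models overlap, though in GENCODE release 29 none of their exons do. The whole printed stretch lies within the deposited span of COL4A2.
COL4A1-COL4A2: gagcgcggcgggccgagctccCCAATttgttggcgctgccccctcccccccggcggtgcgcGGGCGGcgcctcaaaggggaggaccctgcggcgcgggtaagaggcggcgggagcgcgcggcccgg
A set of 5 motifs were searched on both strands: the GC box GGGCGG, the CCAAT box CCAAT, the TATA box TATAAA, the cAMP response element TGACGTCA and the AP-1 site TGANTCA. The region held 1 CCAAT box, which 21.1% of 35116 promoter windows of this length hold, and 1 GC box, which 34.6% hold. TATAAA, TGACGTCA and TGANTCA had no match, and 5.87%, 1.33% and 3.50% of windows held them in that order. Bases G and C made up 80.2% of it.

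All 5 matrix glycoproteins were called, against 58.7% of all tested genes, with 3 higher and 2 lower in LM3. Fibronectin (FN1), a ligand of ITGA5-ITGB1 that bridges cells and collagen, had 939 (si-FENDRR) and 932 (si-NC) FPKM in LM3, against 35.2 (si-FENDRR) and 37.2 (si-NC) FPKM in RBE. The LM3 libraries were nearly equal and lay 25.8-fold above the RBE libraries in mean FPKM (log2 difference 4.65 ± 0.10, adjusted p = 0.000584). SPP1 (osteopontin), a secreted ligand of ITGAV integrins and of CD44, was the most abundant member in every library but LM3 si-NC, where FN1 was. SPP1 had 1118 (si-FENDRR) and 909 (si-NC) FPKM in LM3, against 515 (si-FENDRR) and 504 (si-NC) FPKM in RBE, a log2 difference of 0.98 ± 0.12 (adjusted p = 0.00542). SPARC, a collagen-binding matricellular protein, was weaker in both lines and higher in LM3, at 3.48 (si-FENDRR) and 3.33 (si-NC) FPKM against 1.12 (si-FENDRR) and 0.852 (si-NC) FPKM in RBE (log2 difference 1.15 ± 0.14, adjusted p = 0.00578).

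Tenascin-C (TNC), an adhesion-modulating glycoprotein abundant in wounds and tumour stroma, ran the other way. TNC had 0.0127 (si-FENDRR) and 0.00570 (si-NC) FPKM in LM3, against 57.4 (si-FENDRR) and 67.2 (si-NC) FPKM in RBE. It was almost absent from the LM3 libraries and among the 10 most abundant members in RBE (log2 difference -5.97 ± 0.13, adjusted p = 0.000584). Thrombospondin 1 (THBS1), which binds CD47 and activates latent TGF-beta, had 12.0 (si-FENDRR) and 9.31 (si-NC) FPKM in LM3, against 22.5 (si-FENDRR) and 20.8 (si-NC) FPKM in RBE, a log2 difference of -0.97 ± 0.13 (adjusted p = 0.00691). The adjusted p of SPP1 was 0.0698 without RBE si-FENDRR and 0.0740 without RBE si-NC, and that of THBS1 was 0.0832 without RBE si-FENDRR and 0.0725 without RBE si-NC.

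The promoters of FN1 and TNC are shown because these glycoproteins lay far apart between the lines in opposite directions. Each is the 250 bases before the RefSeq start on GRCh38.p14, printed on the gene's own minus strand at chr2:215436069-215436318 for FN1 and chr9:115118158-115118407 for TNC, with the same motifs in capitals. The deposited gene models start further upstream, at 215436172 for FN1 and 115118257 for TNC, so part of each window lies within the measured gene.
FN1: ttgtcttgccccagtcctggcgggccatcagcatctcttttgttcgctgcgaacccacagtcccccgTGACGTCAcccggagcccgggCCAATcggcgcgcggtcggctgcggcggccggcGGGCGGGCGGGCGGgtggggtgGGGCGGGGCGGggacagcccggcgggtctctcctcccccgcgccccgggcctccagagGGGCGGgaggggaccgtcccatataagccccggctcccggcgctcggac
TNC: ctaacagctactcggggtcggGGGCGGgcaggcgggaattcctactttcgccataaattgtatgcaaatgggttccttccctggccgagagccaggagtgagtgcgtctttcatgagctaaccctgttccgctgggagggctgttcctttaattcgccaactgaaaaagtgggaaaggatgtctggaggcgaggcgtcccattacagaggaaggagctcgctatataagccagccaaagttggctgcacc
The FN1 window held 6 GC boxes, some of them overlapping, 1 CCAAT box and 1 cAMP response element TGACGTCA. Of all windows of this length, 42.6% held a GC box, 32.0% a CCAAT box and 1.65% the cAMP response element. The TNC window held 1 GC box and no exact match to the other motifs. Neither window held the exact letters TATAAA (10.7% of windows) or TGANTCA (6.57%). Near its right end each window holds the similar run TATAAG, which was not among the letters searched. The lack of a TATAAA match therefore does not show that a TATA element is absent. Bases G and C made up 76.4% of the FN1 window and 54.8% of the TNC window. A match is a run of letters and not a site shown to be bound.

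Laminins are trimers of an alpha, a beta and a gamma chain. Of the 6 chains, LAMA3 and LAMB1 were higher in LM3, LAMB3 and LAMC1 were lower, and LAMA5 and LAMB2 were not called. LAMA3, an alpha chain of epithelial laminins, had 50.9 (si-FENDRR) and 50.1 (si-NC) FPKM in LM3, against 8.35 (si-FENDRR) and 8.0 (si-NC) FPKM in RBE, a log2 difference of 2.49 ± 0.11 (adjusted p = 0.00109). LAMB3, the beta chain that joins LAMA3 in laminin of hemidesmosomes, went in the opposite direction, with 4.99 (si-FENDRR) and 5.69 (si-NC) FPKM in LM3 against 17.4 (si-FENDRR) and 19.5 (si-NC) FPKM in RBE (log2 difference -1.62 ± 0.12, adjusted p = 0.00218). The FPKM ratio of LAMB3 to LAMA3 was therefore 0.0981 (si-FENDRR) and 0.114 (si-NC) in LM3 and 2.09 (si-FENDRR) and 2.44 (si-NC) in RBE.

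LAMB1, the beta chain of many basement membrane laminins, had 109 FPKM with either transfection in LM3, against 49.4 (si-FENDRR) and 40.4 (si-NC) FPKM in RBE (log2 difference 1.27 ± 0.13, adjusted p = 0.00387). An exon of LAMB1 shares bases with DLD on the other strand, which had 56.8 (si-FENDRR) and 42.8 (si-NC) FPKM in LM3 and 28.4 (si-FENDRR) and 27.2 (si-NC) FPKM in RBE, and no source used here gives the strand setting of the counting. LAMC1, the gamma chain that pairs with LAMB1, had 25.9 (si-FENDRR) and 24.1 (si-NC) FPKM in LM3, against 38.6 (si-FENDRR) and 34.0 (si-NC) FPKM in RBE, a log2 difference of -0.52 ± 0.11 (adjusted p = 0.0224). Its adjusted p lay between 0.0530 and 0.0891 with any 1 of the 4 libraries left out. The FPKM ratio of LAMB1 to LAMC1 was 4.21 and 4.51 in the LM3 libraries and 1.28 and 1.19 in the RBE libraries. LAMA5, the widespread alpha chain of adult basement membranes, ranged from 25.6 to 37.2 FPKM, with LM3 si-FENDRR lowest and LM3 si-NC highest (log2 difference 0.04 ± 0.18, adjusted p = 0.855). An exon of LAMA5 shares bases with ADRM1 on the other strand, which had 90.7 to 132 FPKM over the 4 libraries. LAMB2 ranged from 18.7 to 24.6 FPKM (log2 difference -0.21 ± 0.14, adjusted p = 0.257).

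Of the 4 proteoglycans, AGRN was higher in LM3, SDC4 was lower, and HSPG2 and SDC1 were not called. Agrin (AGRN, ENSG00000188157, chr1:1020123-1056118 on the plus strand of hg38), a heparan sulfate proteoglycan of the basement membrane that liver cancers are known to express, had 48.6 (si-FENDRR) and 68.3 (si-NC) FPKM in LM3, against 29.2 (si-FENDRR) and 44.2 (si-NC) FPKM in RBE. Both LM3 values were above both RBE values, and the si-FENDRR value was below the si-NC value in each line. The line difference of AGRN was 0.67 ± 0.11 (log2, adjusted p = 0.0116). Its adjusted p ranged from 0.120 to 0.391 with any 1 library left out. The syndecan SDC4, a membrane proteoglycan of focal adhesions, had 16.4 (si-FENDRR) and 17.6 (si-NC) FPKM in LM3, against 23.7 (si-FENDRR) and 27.9 (si-NC) FPKM in RBE (log2 difference -0.57 ± 0.12, adjusted p = 0.0198). The SDC4 call was lost without LM3 si-FENDRR (adjusted p = 0.105), without LM3 si-NC (0.0809) or without RBE si-NC (0.0810). Perlecan (HSPG2), the large basement membrane proteoglycan, had 8.98 to 10.8 FPKM in LM3 and 13 FPKM in both RBE libraries (adjusted p = 0.0773). SDC1, the main syndecan of epithelia, had 30.0 (si-FENDRR) and 34.0 (si-NC) FPKM in LM3 and 22.2 (si-FENDRR) and 32.2 (si-NC) FPKM in RBE, values that overlapped (adjusted p = 0.199).

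Of the 10 integrin chains, 9 were tested, 6 were lower in LM3, against 26.4% of all tested genes, and none was higher, against 32.3%. Summed over the 10 chains, FPKM was 259 in both LM3 libraries, against 705 (si-FENDRR) and 674 (si-NC) in RBE. ITGB1, the beta chain shared by most matrix-binding integrins, had 73.5 (si-FENDRR) and 84.5 (si-NC) FPKM in LM3, against 283 (si-FENDRR) and 276 (si-NC) FPKM in RBE. ITGA3, which with ITGB1 forms a laminin receptor, had 35.8 (si-FENDRR) and 33.2 (si-NC) FPKM in LM3, against 171 (si-FENDRR) and 167 (si-NC) FPKM in RBE. These were the chains with the highest FPKM in RBE, and neither overlapped between the lines. The log2 difference was -1.81 ± 0.12 for ITGB1 (adjusted p = 0.00181) and -2.26 ± 0.11 for ITGA3 (adjusted p = 0.00113), and mean FPKM was 3.54-fold and 4.90-fold higher in RBE.

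ITGB4, the beta chain of the hemidesmosome integrin, had 15.5 (si-FENDRR) and 21.0 (si-NC) FPKM in LM3, against 65.5 FPKM in both RBE libraries (log2 difference -1.80 ± 0.15, adjusted p = 0.00284). Its partner ITGA6 had 12.3 FPKM in both LM3 libraries, against 15.1 (si-FENDRR) and 25.5 (si-NC) FPKM in RBE. ITGA6 was not called (log2 difference -0.63 ± 0.21, adjusted p = 0.0682), but was without RBE si-FENDRR (adjusted p = 0.0277). The FPKM ratio of ITGB4 to ITGA6 was 1.26 (si-FENDRR) and 1.70 (si-NC) in LM3 and 4.34 (si-FENDRR) and 2.57 (si-NC) in RBE.

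The fibronectin and vitronectin receptor chains differed less. ITGA5, the alpha chain of the classical fibronectin receptor, had 14.8 (si-FENDRR) and 16.3 (si-NC) FPKM in LM3, against 24.1 (si-FENDRR) and 28.4 (si-NC) FPKM in RBE (log2 difference -0.72 ± 0.11, adjusted p = 0.0109). ITGAV, which binds vitronectin, osteopontin and latent TGF-beta, had 13.8 (si-FENDRR) and 12.3 (si-NC) FPKM in LM3, against 24.9 (si-FENDRR) and 22.1 (si-NC) FPKM in RBE (log2 difference -0.80 ± 0.11, adjusted p = 0.00803). Both receptor chains were thus lower in the line with more FN1 and SPP1: the FPKM ratio of FN1 to ITGA5 was 63.3 and 57.3 in the LM3 libraries and 1.46 and 1.31 in the RBE libraries. ITGB5, a beta chain that pairs with ITGAV, had 87.4 (si-FENDRR) and 76.2 (si-NC) FPKM in LM3, against 116 (si-FENDRR) and 83.0 (si-NC) FPKM in RBE, values that overlapped (adjusted p = 0.143). ITGB6, the epithelial partner of ITGAV, had 0.358 to 0.496 FPKM in LM3 and 1.03 to 1.46 FPKM in RBE, a low level that was lower in LM3 (log2 difference -0.65 ± 0.15, adjusted p = 0.0274). With a library left out, the adjusted p of ITGA5 was 0.0728 without LM3 si-FENDRR, 0.0566 without LM3 si-NC and 0.0630 without RBE si-NC. That of ITGAV was 0.0586 without RBE si-FENDRR, and that of ITGB6 was 0.0772 without LM3 si-FENDRR, 0.105 without LM3 si-NC and 0.0621 without RBE si-FENDRR. ITGA2, an alpha chain of collagen receptors, overlapped between the lines and is described with the transfections.

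Of the 7 genes for proteases, PLAUR and LOXL2, 2 were higher and 4 were lower in LM3. Urokinase (PLAU), the protease that activates plasminogen, had 22.6 (si-FENDRR) and 23.1 (si-NC) FPKM in LM3, against 83.7 (si-FENDRR) and 74.2 (si-NC) FPKM in RBE (log2 difference -1.74 ± 0.12, adjusted p = 0.00196). Its receptor PLAUR, which holds urokinase at the cell surface, had 11.9 (si-FENDRR) and 10.4 (si-NC) FPKM in LM3, against 4.56 (si-FENDRR) and 3.73 (si-NC) FPKM in RBE (log2 difference 1.24 ± 0.12, adjusted p = 0.00376). Protease and receptor thus lay on opposite sides, with an FPKM ratio of PLAU to PLAUR of 1.90 (si-FENDRR) and 2.22 (si-NC) in LM3 and of 18.4 (si-FENDRR) and 19.9 (si-NC) in RBE.

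MMP2, a gelatinase that degrades type IV collagen, had 4.14 (si-FENDRR) and 3.48 (si-NC) FPKM in LM3, against 0.0115 (si-FENDRR) and 0.0245 (si-NC) FPKM in RBE (log2 difference 2.24 ± 0.15, adjusted p = 0.00196). The membrane-bound metalloproteinase MMP14, which activates pro-MMP2, had 18.1 (si-FENDRR) and 19.9 (si-NC) FPKM in LM3, against 28.6 (si-FENDRR) and 28.8 (si-NC) FPKM in RBE. The related MMP15 had 5.18 (si-FENDRR) and 5.36 (si-NC) FPKM in LM3, against 15.3 (si-FENDRR) and 17.2 (si-NC) FPKM in RBE. Both membrane-bound enzymes were lower in LM3, by a log2 difference of -0.57 ± 0.12 for MMP14 (adjusted p = 0.0189) and -1.46 ± 0.12 for MMP15 (adjusted p = 0.00278). The adjusted p of MMP14 was 0.0650 without RBE si-FENDRR and 0.0681 without RBE si-NC. MMP7 (matrilysin), a metalloproteinase of epithelial cells, ranged from 101 to 125 FPKM and was not called (log2 difference -0.19 ± 0.10, adjusted p = 0.180). LOXL2, a lysyl oxidase that crosslinks collagen, had 8.21 (si-FENDRR) and 9.44 (si-NC) FPKM in LM3, against 33.7 (si-FENDRR) and 37.5 (si-NC) FPKM in RBE (log2 difference -1.90 ± 0.11, adjusted p = 0.00161). An exon of LOXL2 shares bases with ENTPD4 on the same strand, which had 9.43 to 10.7 FPKM over the 4 libraries.

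All 3 TIMPs were called, against 58.7% of all tested genes. TIMP3, the inhibitor that binds to the matrix, had 27.0 (si-FENDRR) and 28.2 (si-NC) FPKM in LM3, against 0.337 (si-FENDRR) and 0.249 (si-NC) FPKM in RBE (log2 difference 4.47 ± 0.13, adjusted p = 0.000654). TIMP1, a secreted inhibitor of most MMPs, was the most abundant of the 3, with 224 (si-FENDRR) and 228 (si-NC) FPKM in LM3, against 125 (si-FENDRR) and 140 (si-NC) FPKM in RBE (log2 difference 0.76 ± 0.10, adjusted p = 0.00759). TIMP2, which also takes part in MMP2 activation with MMP14, was lower in LM3, with 24.0 (si-FENDRR) and 33.6 (si-NC) FPKM against 67.7 (si-FENDRR) and 66.8 (si-NC) FPKM in RBE. Its log2 difference was -1.21 ± 0.16 (adjusted p = 0.00734), with an adjusted p of 0.0839 without RBE si-FENDRR and 0.0831 without RBE si-NC.

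**Figure D2:**
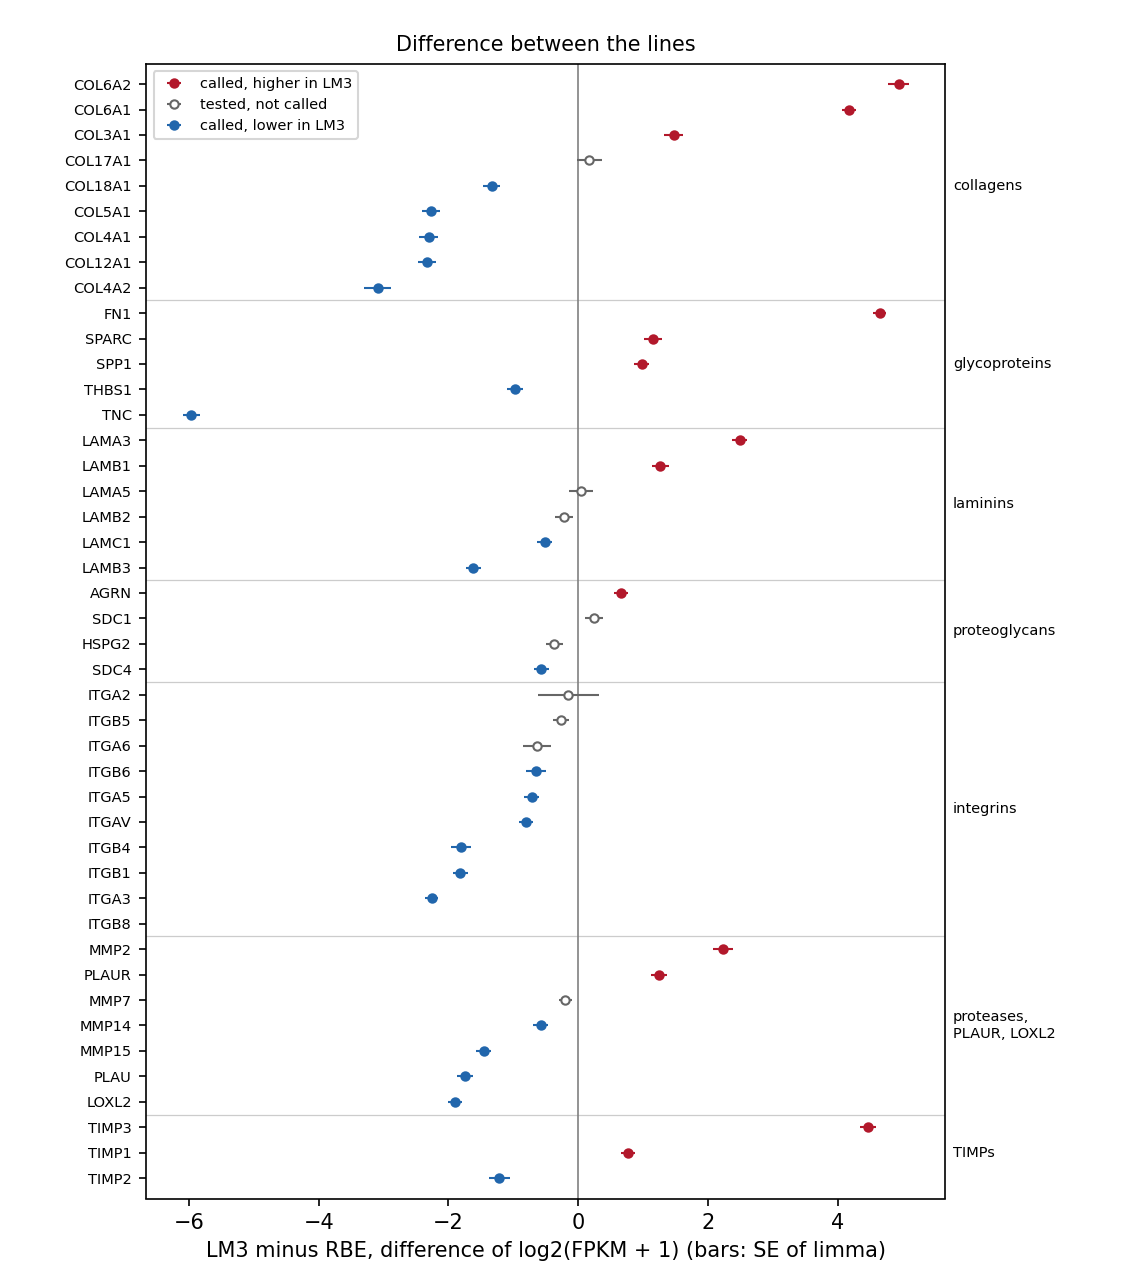
Difference between the lines, LM3 minus RBE, of log2(FPKM + 1) for the 43 tested members, with bars for the limma standard error (n = 2 libraries per line); red points were called higher in LM3, blue points lower, and open points were not called. The collagens, glycoproteins, laminins and TIMPs spread to both sides of 0, whereas all 9 tested integrin chains lie below 0, of which 6 were called.

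Over both lines, 0 of 43 members were called between the transfections. Of the 15930 tested genes, 0% were called by limma, and the smallest adjusted p was 0.473; an unadjusted p under 0.05 was found for 657 genes. Over the members, the adjusted p lay between 0.959 and 0.999, and AGRN alone had an unadjusted p under 0.05. In both lines AGRN was lower with si-FENDRR, at 48.6 FPKM (si-FENDRR) against 68.3 FPKM (si-NC) in LM3 and 29.2 FPKM (si-FENDRR) against 44.2 FPKM (si-NC) in RBE (log2 difference -0.53 ± 0.11, n = 2 lines, adjusted p = 0.959). The value was lower in 2 of 2 lines, and the difference did not pass the correction over all genes. The other proteoglycans SDC1, SDC4 and HSPG2 were lower in both lines too, HSPG2 by less than 0.01 (log2) in RBE, and none had an unadjusted p under 0.05. For SDC1 these differences were -0.18 (LM3) and -0.52 (RBE) on the log2 scale. Proteoglycans outside the members shared no common direction. Among 8 of them that were tested, the si-FENDRR value exceeded the si-NC value in each line for 3. It lay below the si-NC value in each line for another 3. With si-FENDRR, 11 of the 43 members were higher in both lines, against 26.9% of all tested genes, and 15 were lower in both, against 21.8%.

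Within a line, each transfection had 1 library, so those differences carry no test. ITGA2 (ENSG00000164171, chr5:52989326-53094779 on the plus strand of hg38) forms a receptor for collagen with ITGB1. It had 5.59 (si-FENDRR) and 2.19 (si-NC) FPKM in LM3, and 2.92 (si-FENDRR) and 5.61 (si-NC) FPKM in RBE. The si-FENDRR value was thus the higher one in LM3 (log2 difference 1.05) and the lower one in RBE (-0.75). ITGA2 was the only member at least 2-fold apart within LM3 on the FPKM + 1 scale, against 2.13% of tested genes, and also the only one at least 1.5-fold apart there, against 7.97%. In RBE no member was 2-fold apart, against 1.75% of tested genes, and ITGA2 and ITGA6 were at least 1.5-fold apart, against 6.27%. ITGA6, at 15.1 (si-FENDRR) and 25.5 (si-NC) FPKM in RBE, differed by -0.01 in LM3 and by -0.72 in RBE on the log2 scale. Other within-line differences were smaller. In LM3 they included LAMA5 (-0.52), COL6A2 (-0.49), TIMP2 (-0.47) and COL17A1 (0.48), and in RBE ITGB5 (0.48). The median log2 difference over the 43 members was -0.03 in LM3, against 0.00 over all tested genes, and -0.00 in RBE, against 0.02.

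**Figure D3:**
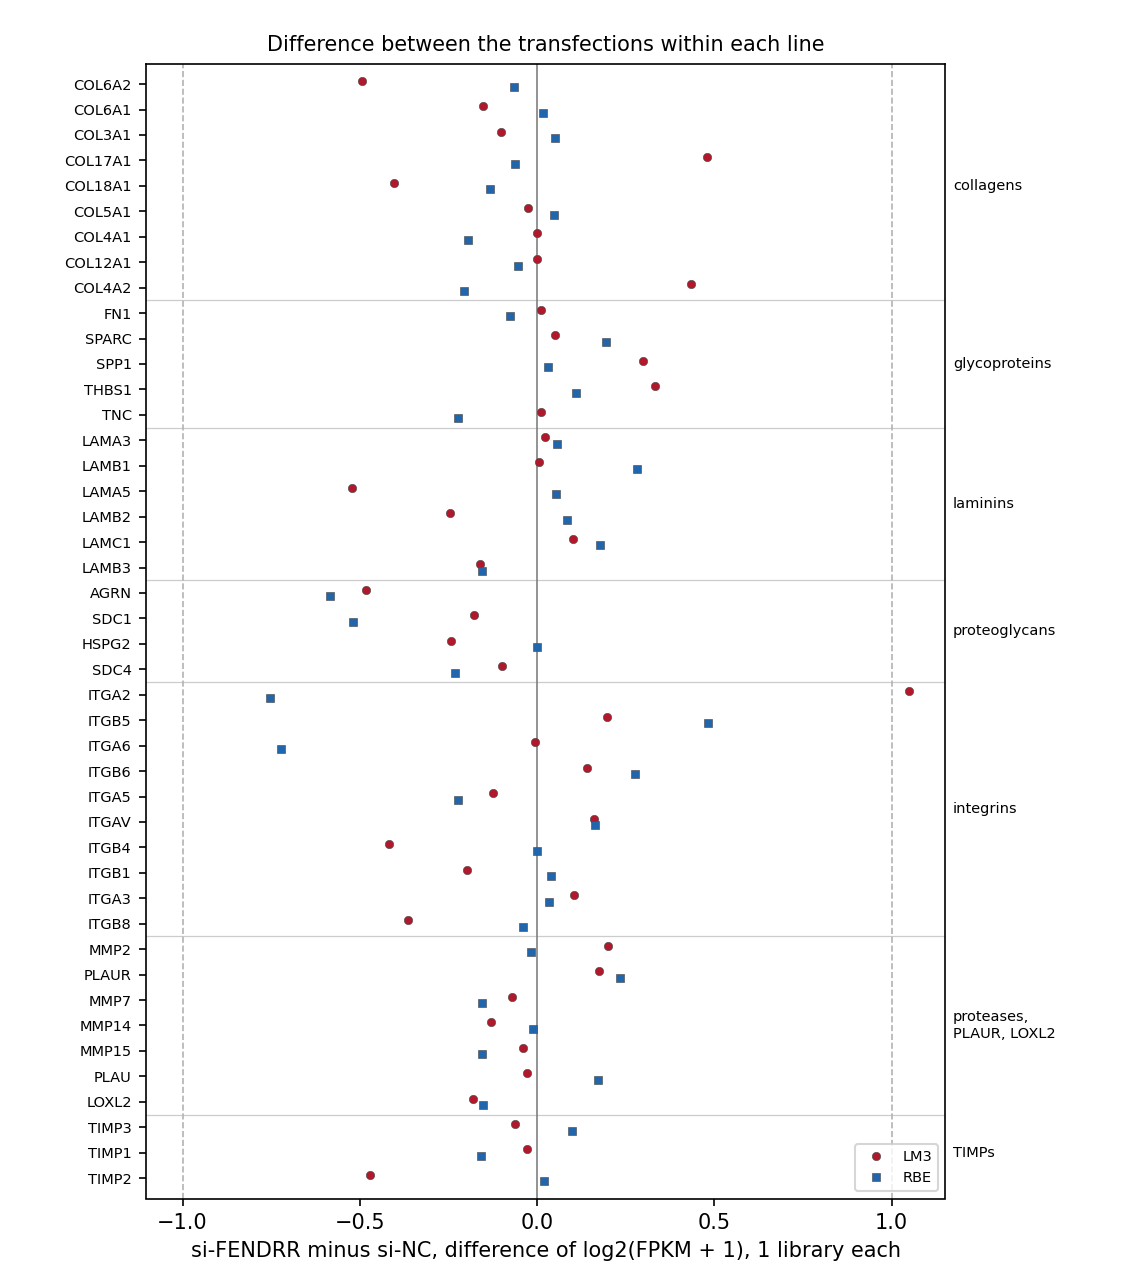
Difference between the transfections, si-FENDRR minus si-NC, of log2(FPKM + 1) in LM3 (circles) and RBE (squares) for the 44 members, from 1 library each and without error bars; dashed lines mark a 2-fold difference. Most marks lie within 0.5 of 0, ITGA2 lies past the 2-fold line in LM3 and on the other side of 0 in RBE, and AGRN lies below 0 in both lines.

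The surroundings of these genes were described with 186 further genes in 10 lists, of which 124 were tested. Of these, 92 were called, against 58.7% of all tested genes: 42 were higher in LM3, against 32.3%, and 50 were lower, against 26.4%. The counts of each list below stand beside the same shares. Among 23 further collagens, 10 were tested, 4 were higher and 2 were lower. COL5A2, a partner chain of COL5A1, had 3.85 and 4.53 FPKM in the LM3 libraries against 0.137 and 0.116 FPKM in the RBE libraries, the opposite side from COL5A1. COL4A5, a further type IV chain named after its values were seen, had 3.29 and 3.57 FPKM in LM3 against 3.22 and 3.41 FPKM in RBE and was not called (log2 difference 0.04, adjusted p = 0.813), and COL4A3, COL4A4 and COL4A6 were under 1 FPKM in all libraries. COL13A1, a transmembrane collagen, was listed at 0 in LM3 and had 12.4 and 13.8 FPKM in RBE. COL5A3 had 3.17 and 3.49 FPKM in LM3 and was listed at 0 in RBE, and COL1A1, the main chain of type I collagen, had 0.0632 and 0.0130 FPKM in LM3 against 2.94 and 2.45 FPKM in RBE.

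Among 11 further laminins and basement membrane genes, 6 were tested, 2 were higher and 3 were lower in LM3. Nidogen 1 (NID1), which links laminin to type IV collagen, had 20.8 and 21.2 FPKM in LM3 against 7.31 and 3.75 FPKM in RBE. LAMA4 was also higher in LM3, and FRAS1 was lower. Among 28 further glycoproteins, 18 were tested, 5 were higher and 10 were lower. LTBP4 (42.2 and 40.7 FPKM in LM3 against 4.93 and 3.82 FPKM in RBE), which binds latent TGF-beta, and FBLN1 were among the higher. Vitronectin (VTN, 0.282 and 0.502 FPKM in LM3 against 13.9 and 17.6 FPKM in RBE), a ligand of ITGAV, and MATN2 were among the lower. Among 13 further proteoglycans, 8 were tested, 3 were higher and 5 were lower. Lumican (LUM), a collagen-binding proteoglycan, had 28.4 and 24.9 FPKM in LM3 and was listed at 0 in RBE, while syndecan 2 (SDC2) had 0.0546 and 0.0576 FPKM in LM3 against 10.2 and 11.1 FPKM in RBE. GPC1 was higher in LM3 and GPC4 was lower.

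Of 15 further integrin chains, 9 were tested, 3 were higher and 3 were lower in LM3. ITGB7, a chain best known from lymphocytes, had 10.3 and 11.8 FPKM in LM3 against 0.0843 and 0.133 FPKM in RBE, and ITGAM was also higher. ITGB3, a partner of ITGAV, had 0 and 0.0109 FPKM in LM3 against 2.47 and 2.22 FPKM in RBE, and ITGB2 was also lower. Among 10 other matrix receptors and integrin partners, 9 were tested, with 3 higher and 5 lower. Dystroglycan (DAG1), a laminin receptor, had 31.7 and 32.8 FPKM in LM3 against 6.16 and 8.79 FPKM in RBE. CD9 was also higher, and the tetraspanin CD82 and the laminin receptor BCAM were lower. Of 23 genes of the integrin adhesion complex inside the cell, 20 were tested, 5 were higher and 6 were lower. FERMT3, a kindlin that activates integrins and is best known from blood cells, had 104 and 135 FPKM in LM3 against 0.791 and 0.488 FPKM in RBE (log2 difference 6.20 ± 0.20, adjusted p = 0.000707). PARVB was higher as well, and the tensins TNS3 and TNS2 were lower.

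Among 13 serine proteases and protease inhibitors, 10 were tested, 4 were higher and 4 were lower in LM3. SERPINE2, a serine protease inhibitor, had 119 and 107 FPKM in LM3 against 12.9 and 17.4 FPKM in RBE. The membrane serine protease inhibitor SPINT2 (1.93 and 1.63 FPKM in LM3 against 86.7 and 81.2 FPKM in RBE) and the membrane protease ST14 were lower. Among 33 further metalloproteases, 20 were tested, 6 were higher and 9 were lower. MMP1, a collagenase, had 4.83 and 4.26 FPKM in LM3 and was listed at 0 in RBE, as was ADAMTS12. MMP24, a membrane-bound MMP, had 8.32 and 8.24 FPKM in LM3 against 35.0 and 34.7 FPKM in RBE, and MMP28 was also lower. Among 17 genes of collagen processing and crosslinking, 14 were tested, 7 were higher and 3 were lower. The lysyl oxidases lay on both sides: LOXL1 had 12.4 and 14.4 FPKM in LM3 against 0.679 and 0.617 FPKM in RBE, and LOXL4 had 0.495 and 0.375 FPKM in LM3 against 36.4 and 37.9 FPKM in RBE. The collagen lysyl hydroxylase PLOD3 was higher in LM3 and PCOLCE, an enhancer of procollagen cleavage, was lower.

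**Figure D4:**
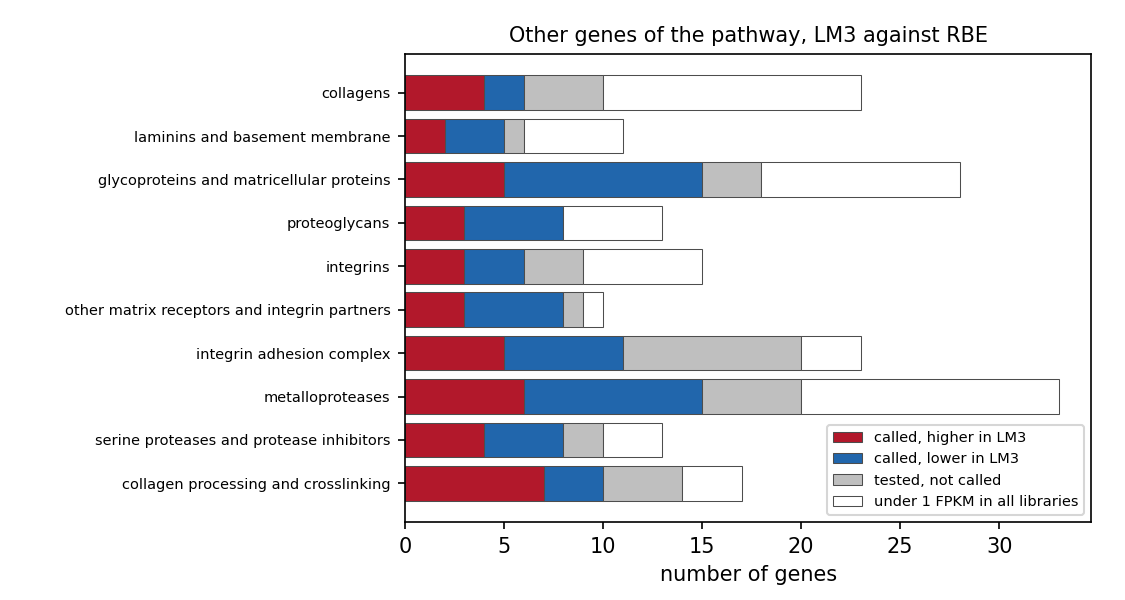
Number of genes in each of 10 lists of further matrix and adhesion genes that were called higher in LM3 (red), called lower in LM3 (blue), tested but not called (grey) or under 1 FPKM in all libraries (white). Calls in both directions occur in all 10 lists, with the collagen processing genes at 7 higher and 3 lower and the glycoproteins at 5 higher and 10 lower.

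Between the transfections none of the 186 genes was called. With si-FENDRR, 21 of the 124 tested were higher in both lines, against 26.9% of all tested genes, and 35 were lower in both, against 21.8%. None was at least 2-fold apart in the same direction in both lines. The lowest adjusted p was 0.959. An unadjusted p under 0.05 by limma was found for 3 of the 124, against 657 of all 15930 tested genes. The 3 were ITGA10, the collagen receptor kinase DDR1 and the thrombospondin receptor CD47. All 3 were lower with si-FENDRR in both lines, but a low p in this fit already depends on the lines moving alike.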

How the data were processed

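RNA-seq values of 4 libraries, 1 for each cell line and transfection, were taken as the authors deposited them, as FPKM per the file headers. The submitters' processing notes name FastQC, HISAT2 and the build hg38. None of the sources used here gives the program that estimated FPKM, its annotation, its strand setting or its handling of ambiguous reads. The files hold no read counts: between 10.4% and 15.2% of low values were within 0.02 of a whole number of reads, so reads were not recovered, depth is unknown and no counting interval is given. Values of 0 can be failed estimates.

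Genes that reached an FPKM of 1 in some library, 15930 in all, were fitted as log2(FPKM + 1) with limma (version 3.58.1, R 4.3.3) and a prior variance that follows a trend. Its terms were 1 for the line (LM3 minus RBE) and 1 for the transfection (si-FENDRR minus si-NC), which left 1 residual degree of freedom. The transfection p-values measure how alike the lines responded, and the line p-values how alike the line difference was under both transfections. P-values were Benjamini-Hochberg adjusted over all tested genes with a threshold of 0.05. The members and lists were chosen with earlier results of these data known. Every member could be named. Of each further list the genes called were counted and up to 2 per direction with the largest line difference named. Any gene at least 2-fold apart the same way in both lines was to be named as well. Of marker lists the 2 most abundant were named. Other markers, and ITGA10, DDR1 and CD47 as a count of 3, were named after their values were seen. Some genes that this rule names are not reported here. Annotation came from GENCODE release 29 (GRCh38): all 44 members are protein coding, 44 had the same start and 39 the same end there, and 21 share exon bases with another listed gene (8 on the same strand), whose reads may have been split between the genes. Alternatives covered the pseudocount (0.1 and 5), the filter, the scaling of libraries, the prior, the model terms and each library left out.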

Additional observations from a re-analysis of the deposited data

Results flagged for a closer look

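ITGA2 was the only member whose within-line differences stood on opposite sides in the 2 lines and reached at least 1.5-fold in both. The log2 difference between si-FENDRR and si-NC was 1.05 in LM3 and -0.75 in RBE, so the lines differed by 1.80. With 1 library per line and transfection, this difference was not tested.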

How the results depend on the processing

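The 34 members called between the lines stayed 34 with pseudocounts of 0.1 and 5, an FPKM of at least 1 in at least 2 libraries, equal library totals and a prior without trend. Median-of-ratios scaling gave 36, adding HSPG2 and ITGA6, placed LAMA5 at -0.0513 and moved the share of called genes that were higher in LM3 to 50.1%, against 55.1%. Without a transfection term 33 were called, AGRN being lost. Over all tested genes, 9348 were called in the main fit, 9417 with median-of-ratios scaling and 9643 without a transfection term. The alternatives that kept 34 members called 9087 to 9270 genes. The 9087 were of 14851 genes with at least 1 FPKM in at least 2 libraries. With no filter on low values, 0 members were called between the lines, 0 higher and 0 lower, as were 0 genes in all (smallest adjusted p = 0.108). With 1 library left out, fewer members were called, and fewer of all tested genes as well. The line difference then ranged from -0.067 to 0.41 for COL17A1 and from -0.22 to 0.30 for LAMA5. It ranged from -0.67 to 0.37 for ITGA2 and from -0.0129 to 0.51 for SDC1, so each of these genes turned sign. Of the 23 members without an exon shared with another gene, a restriction chosen after seeing the data, 18 were called, 8 higher and 10 lower in LM3. Of all tested genes, 58.7% were called in the main fit, 32.3% higher and 26.4% lower. At least 2-fold apart within LM3 were 2 members with a pseudocount of 0.1 and 0 with 5, and 2 members were at least 1.5-fold apart within RBE. Between the transfections, 0 members and 0 genes were called under every alternative run, including the fit without the cell line as a block (32 genes at an unadjusted p under 0.05). The transfection fit without a library was not run. Unknown depth limits what can be said of members under 1 FPKM.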

Other observations

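Among the further genes of the adhesion complex, VCL and ACTN4, which encode vinculin and alpha-actinin 4 and couple integrins to actin, stood apart within RBE; both were chosen after their values were seen. VCL had 21.8 (si-FENDRR) and 19.95 (si-NC) FPKM in LM3, and 26.8 (si-FENDRR) and 55.9 (si-NC) FPKM in RBE, a log2 difference of -1.03 in RBE. ACTN4 had 160.0 (si-FENDRR) and 163 (si-NC) FPKM in LM3, and 222 (si-FENDRR) and 102 (si-NC) FPKM in RBE, a log2 difference of 1.11 in RBE. Each rests on 1 library per transfection and was not tested within RBE; over both lines, the adjusted p of the transfection was 0.959 for VCL and for ACTN4 by limma.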
